A study of Homo sapiens with 12 samples.

Results

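The JNK and p38 stress kinase cascade was followed in RNA bound to Argonaute 2 (AGO2) in K562 cells with and without added miR-143. The 10 genes were chosen by their names, and the choice also used 1 measured value, the 0 of MAP4K1 in the AGO2 precipitate of control cells. They are MAP4K1 at the top of the cascade, the MAP3 kinases MAP3K1 and MAP3K5, the MAP2 kinases MAP2K3, MAP2K4, MAP2K6 and MAP2K7, and the kinases at its end, MAPK8, MAPK9 and MAPK14. Each had 1 row of its own among the 61782 gene rows, and none was joined with a neighbouring gene. K562 is a human erythroleukemia cell line, and the study's methods name the line used as K562-C/EBPα-ER, which carries an inducible form of C/EBPα. All 4 groups came from cells transduced with a lentiviral vector that carries a red fluorescent reporter, and all were kept under puromycin. Control cells held pLV-control and miR-143 cells held pLV-miR-143, and both were selected pools. RNA immunoprecipitation with an antibody against AGO2 gave the groups control_AGO and miR143_AGO, and a mock precipitation with unspecific IgG gave control_IgG and miR143_IgG. The labels name 12 samples, numbered 1 to 3 in each group, and the study describes them as 3 independent experiments.

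The values are the authors' average per gene and group in FPKM, read pairs counted per unit of transcript length and per unit of sequencing depth. There is 1 value per gene and group, so that no difference below has an error, a test or a replicate check. A recovered level can differ because more of a transcript was held by AGO2 or because the cells made more of it, and these cannot be told apart, since no input RNA was analysed here. Nor can fewer cells with a transcript and less of it per cell.

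Stress-activated kinases pass a signal down a chain by phosphorylation. MAP4 kinases and small GTPases act on MAP3 kinases, these activate MAP2 kinases, and MAP2 kinases activate the JNK kinases (MAPK8, MAPK9) and the p38 kinases (MAPK14 and its relatives), which act on transcription factors and on further kinases. In blood cells the cascade takes part in responses to cytokines, osmotic and oxidative stress, in apoptosis and in the maturation of myeloid cells. A miRNA carried by AGO2 finds a transcript mainly by pairing of its seed, bases 2 to 8, with a site that lies most often in the 3′ UTR.

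The sequences below show where the seed of miR-143-3p could pair within these 10 genes. The mature miRNA (RefSeq, GRCh38.p14, chr5:149428978-149428998, plus strand) is printed with its seed in capitals. The 3′ UTR windows of 30 bases (GENCODE 29, GRCh38) are printed 5′ to 3′ on the strand of the transcript with the matching letters in capitals.
miR-143-3p: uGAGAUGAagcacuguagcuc
MAP4K1: catggcatgtccTCATCTCccaataaacat
MAP3K1: ttttaccatgcaTCATCTCtttacagtagg
MAP2K6, first site: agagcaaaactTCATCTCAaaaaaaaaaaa
MAP2K6, second site: ttctggttggaaTCATCTCttctttacgga
MAPK8: acgcagatagagCATCTCAactctgtcata
MAPK14: aaagtaaaggccTCATCTCctttattgcag

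The search on the transcript strand used TCATCTC (7mer-m8, opposite bases 2 to 8), CATCTCA (7mer-A1, opposite bases 2 to 7 and followed by A) and TCATCTCA (8mer), which contains both shorter motifs and was counted once. The longest annotated 3′ UTR held a site in 5 of the 10 genes, 6 sites in all. Over all coding genes with a 3′ UTR it did so in 4249 of 19151 (22.2%), and an 8mer was present in 880 (4.60%). The longest 3′ UTR of the 10 genes had a median of 2521 bases, against 1104 over all coding genes, and a longer UTR has more room for a match. The 8mer of MAP2K6 lies at chr17:69546014-69546021, and its second site at chr17:69552446-69552452, both on the plus strand in a 3′ UTR of 12108 bases. The site of MAP4K1 lies at chr19:38587667-38587673 on the minus strand, at base 137 of a 3′ UTR of 169 bases. MAPK14 has its site at chr6:36110375-36110381 (plus strand), at base 1928 of 2789, and MAPK8 at chr10:48437650-48437656 (plus strand), at base 2755 of 4465. The site of MAP3K1 is at chr5:56894739-56894745 (plus strand), at base 1059 of 2472. Isoforms of a gene differed in this respect. A site was held by 6 of 7 transcripts of MAPK8 with an annotated 3′ UTR, by 3 of 5 of MAP4K1, by 2 of 4 of MAPK14, by 1 of 3 of MAP2K6 and by the single one of MAP3K1. In MAPK9 it was held by 1 of 8 and not by the longest. The motifs are not in the longest 3′ UTR of MAP2K3, MAP2K4, MAP2K7 and MAP3K5. A match of letters is a description and not evidence of binding.

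**Figure D1:**
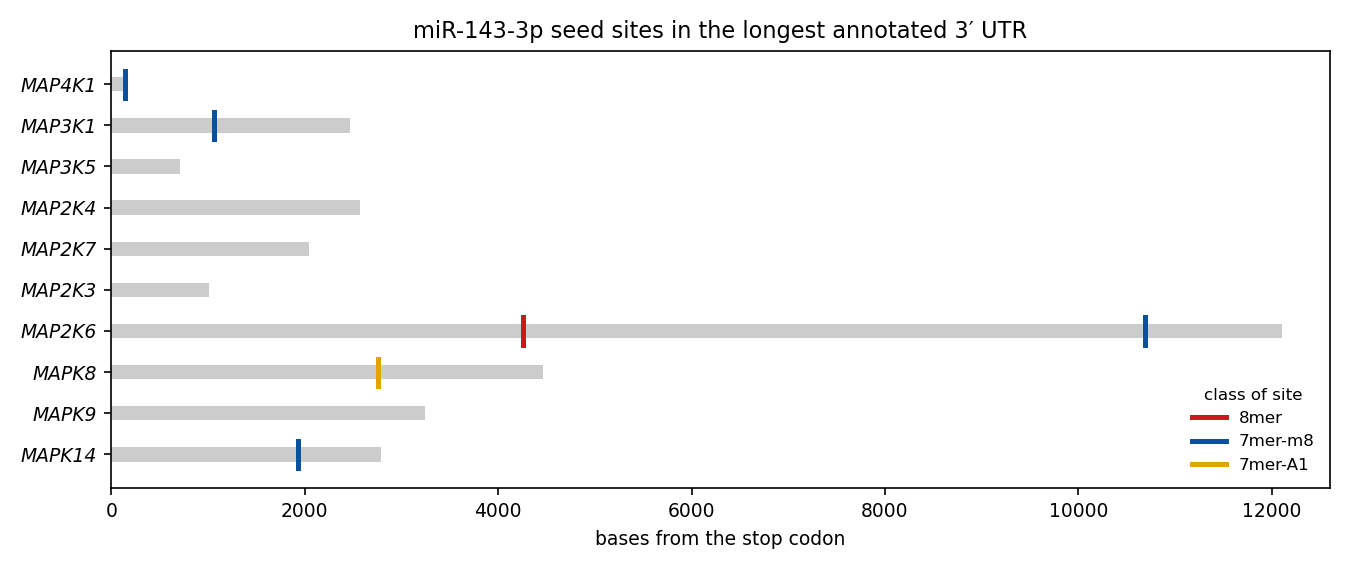
The longest annotated 3′ UTR of each of the 10 genes, with the distance from the stop codon in bases on the x axis and the matches to the miR-143-3p seed marked by class. MAP2K6 has the longest 3′ UTR (12108 bases) and 2 sites, and the site of MAP4K1 lies near the end of a 3′ UTR of 169 bases.

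The groups differed in depth. The lowest readable product of FPKM and transcript length, which is smaller in deeper libraries, was lowest in miR143_AGO, and stood at 1.09 times that value in control_AGO, 1.64 times in miR143_IgG and 12.9 times in control_IgG. Rows above 0 numbered 8393 in control_IgG and between 11453 and 12937 in the other groups, and a 0 in control_IgG therefore says least. Of 3272 coding rows with at least 5 FPKM in control_AGO, a limit chosen after the values had been seen, 325 (9.93%) were at 0 in control_IgG. The MIR143 row checks the labels, and it reached 118393 FPKM (AGO2) and 44781 FPKM (IgG) in miR-143 cells, and was listed at 0 in both precipitates of control cells. The 9 markers of K562 cells, in 7 rows, were above 0 in 6 to 7 rows per group. Of the granulocytic markers, MPO, ELANE, S100A8 and FCGR3B were at 0 in every group, and ITGAM lay between 4.66 and 13.04 FPKM. CSF3R was lower in miR-143 cells, with 1.05 FPKM (AGO2) and 0 FPKM (IgG) against 3.85 FPKM (AGO2) and 1.96 FPKM (IgG) in control cells, and CEBPE was above 0 in control_IgG alone, at 2.12 FPKM.

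The cascade as a whole was present at low to moderate levels. Of the 10 genes, 8 were above 0 in control_AGO, 9 in miR143_AGO, 4 in control_IgG and 8 in miR143_IgG. At least 1 FPKM was reached by 6, 7, 3 and 5 of them in that order. Their summed level with the AGO2 antibody was 70.02 FPKM in control and 59.1 FPKM in miR-143 cells, and with IgG 46.2 FPKM in control and 43.9 FPKM in miR-143 cells. MAPK8 was the highest of the 10 in 3 groups, with 64.2% of the sum in control_IgG, 50.5% in miR143_IgG and 34.8% in miR143_AGO. In control_AGO the highest was MAPK14, with 54.5% of the sum, and MAPK8 made up 17.7%. MAP4K1 made up none of the sum in the control groups, 14.8% in miR143_IgG and 22.05% in miR143_AGO.

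**Figure D2:**
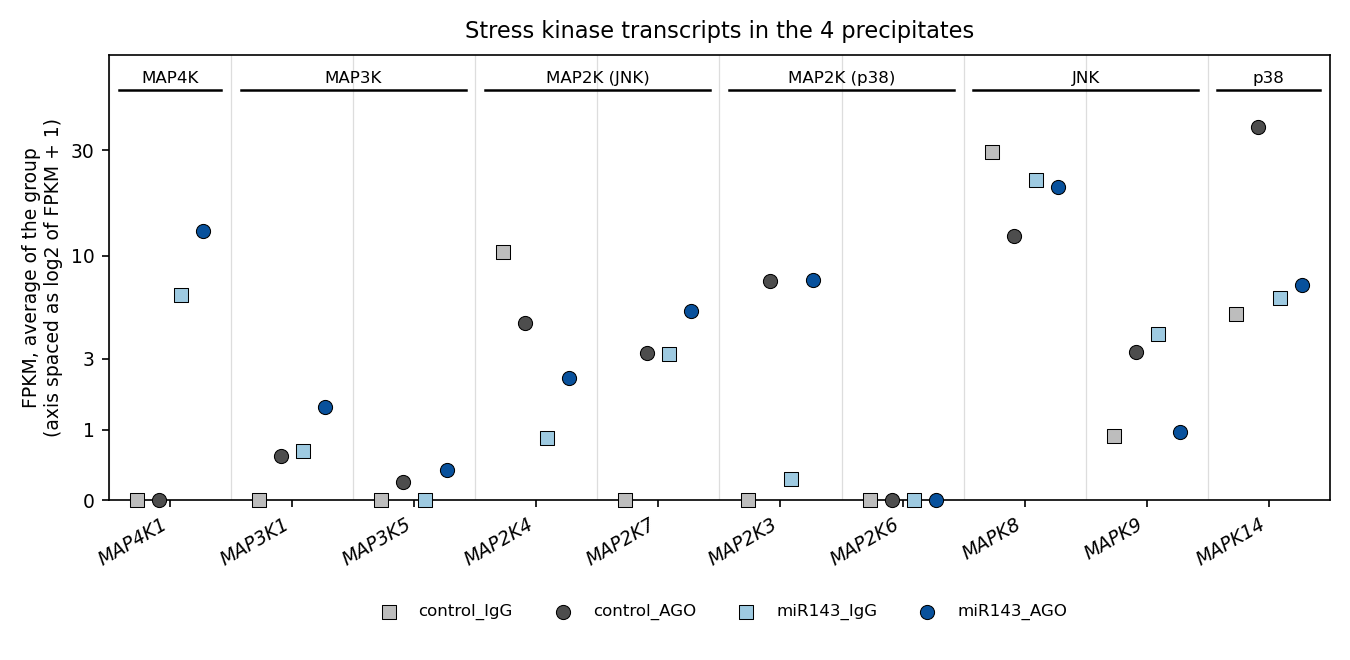
Authors' average FPKM of each of the 10 genes in the 4 groups, with 1 point per gene and group and no error, since no replicate values were analysed. MAPK14 stands out in control_AGO (38.2 FPKM), and MAP4K1 is above 0 in both miR-143 groups (6.48 and 13.04 FPKM) and at 0 in both control groups.

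MAP4K1 (HPK1), a kinase of blood cells that signals towards JNK, was the 1 gene of the 10 that was above 0 in both precipitates of miR-143 cells and in neither of control cells, a pattern that TAOK3, described with the MAP3 kinases of the wider pathway, also had. It lies at chr19:38587641-38618882 on the minus strand. In miR-143 cells it reached 13.04 FPKM with the AGO2 antibody and 6.48 FPKM with IgG, and in control cells it was listed at 0 with both. The value in control_AGO chose the gene, so that this difference is a description. No fold is given against a group at 0. For a transcript of its length the lowest readable level was about 0.0220 FPKM in control_AGO and 0.261 FPKM in control_IgG, and the value in miR143_AGO was 644 times the lowest readable level of its own group. Within miR-143 cells MAP4K1 was 2.01 times higher with the AGO2 antibody than with IgG, a log2 ratio of 0.91 on the scale of FPKM + 1 that is used for all log2 ratios here. Its recovery from miR-143 cells was therefore not limited to the AGO2 antibody. An exact 0 in such a table can also be an estimate that failed, which 1 value per group does not show.

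MAP4K1 is also a gene of T and B cells, so 6 lymphoid markers were read beside it. All 6 were at 0 in both control groups. In miR143_IgG 1 of the 6 was above 0, CD3D at 4.95 FPKM. In miR143_AGO CD79A alone of the 6 was above 0, at 0.714 FPKM, while LCK, CD2, CD3E and MS4A1 were at 0 in every group. The part of these transcripts in the level of MAP4K1 was not tested.

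By Euclidean distance of log2(FPKM + 1) over the 4 groups, the coding row nearest to MAP4K1 among 15535 was CPNE3, which encodes a phospholipid-binding copine. It stood at a distance of 0.530, with 16.05 FPKM (AGO2) and 4.93 FPKM (IgG) in miR-143 cells and 0.232 FPKM (AGO2) and 0 FPKM (IgG) in control cells. Next came GAB1, a docking protein of receptor signalling, at a distance of 1.16. Its levels were 6.78 FPKM (AGO2) and 5.33 FPKM (IgG) in miR-143 cells and 0.675 FPKM (AGO2) and 0 FPKM (IgG) in control cells. The elongation factor gene ELL2 (1.42), the transcription factor gene FOXH1 (1.46) and the channel gene TTYH3 (1.53) followed. All 5 neighbours had a value above 0 in control_AGO, between 0.119 and 1.53 FPKM.

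Both MAP3 kinases among the 10 genes were low, whereas other MAP3 kinases of the pathway were not, such as MAP3K4 with 36.1 FPKM in control_AGO and 53.03 FPKM in miR143_AGO. MAP3K1 (MEKK1; chr5:56815574-56896152, plus strand), which activates the MAP2 kinases of the JNK branch, reached 0.536 FPKM in control and 1.51 FPKM in miR-143 cells with the AGO2 antibody, and with IgG it was listed at 0 in control and at 0.615 FPKM in miR-143 cells. Its log2 ratio was 0.71 between the AGO2 precipitates and 0.63 between AGO2 and IgG in miR-143 cells. It passed the limit of 1 FPKM only through miR143_AGO. The antisense gene AC008937.2 overlaps MAP3K1 and was listed at 0 FPKM with IgG in both cell populations, and with the AGO2 antibody it reached 3.86 FPKM in control and 4.99 FPKM in miR-143 cells. Whether the counting used strand is not given in the sources used here, so reads of the pair may not be separate. MAP3K5 (ASK1; chr6:136557047-136792518, minus strand), a sensor of oxidative stress, was at 0 in both IgG groups, and the AGO2 antibody gave 0.196 FPKM in control and 0.345 FPKM in miR-143 cells. It stayed under 1 FPKM in every group and entered no comparison.

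The MAP2 kinases were recovered unequally. MAP2K3 (MKK3; chr17:21284672-21315240, plus strand), an activator of p38 kinases, reached 7.56 FPKM in control and 7.69 FPKM in miR-143 cells with the AGO2 antibody, and with IgG it was listed at 0 in control and at 0.227 FPKM in miR-143 cells. Both AGO2 precipitates were high and alike, with a log2 ratio of 0.02, and both mock precipitates were low. In miR-143 cells MAP2K3 was 33.8 times higher with the AGO2 antibody by the plain ratio, a log2 ratio of 2.82, and 97.0% of the rows compared there had a lower one. The divisor, 0.227 FPKM, was 5.84 times the lowest readable level and rests on few fragments. Among those of the 10 genes compared there, this was the largest log2 ratio of AGO2 over IgG in miR-143 cells. In the wider pathway MAPKAPK5 (3.22) and TAOK1 (3.07) had larger ones.

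MAP2K6 (MKK6; chr17:69414698-69553861, plus strand), the other p38 activator, was listed at 0 FPKM in all 4 groups. It is the gene with the 8mer and 2 of the 6 sites shown above, so that these data hold no measurement of it in either cell population.

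MAP2K4 (MKK4; chr17:12020824-12143830, plus strand), which acts on JNK and p38 kinases, reached 4.70 FPKM in control and 2.32 FPKM in miR-143 cells with the AGO2 antibody, and 10.4 FPKM in control and 0.842 FPKM in miR-143 cells with IgG. Both precipitates of miR-143 cells were below both of control cells. The log2 ratio was −0.78 between the AGO2 precipitates, and 17.9% of rows had a lower one. It was −2.63 between the mock precipitates, where the plain ratio was 12.4 times lower. Since the mock ratio was the larger of these, the IgG-corrected log2 ratio, AGO2 over IgG in miR-143 cells against AGO2 over IgG in control cells, was 1.86. A processed copy, MAP2K4P1, was listed at 0 to 0.446 FPKM, and reads shared with it cannot be assigned.

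MAP2K7 (MKK7; chr19:7903843-7914478, plus strand), which is specific to JNK, reached 3.24 FPKM in control and 5.42 FPKM in miR-143 cells with the AGO2 antibody, and with IgG it was listed at 0 in control and at 3.20 FPKM in miR-143 cells. Only the shallow control_IgG lacked it. The log2 ratio was 0.60 between the AGO2 precipitates and 0.61 between AGO2 and IgG in miR-143 cells.

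At the end of the cascade MAPK14 had the lowest ratio of the 10 genes between the AGO2 precipitates. MAPK14 (p38α; chr6:36027677-36111236, plus strand), the main p38 kinase of most tissues, reached 38.2 FPKM in control and 7.28 FPKM in miR-143 cells with the AGO2 antibody, and 5.25 FPKM in control and 6.24 FPKM in miR-143 cells with IgG. Only control_AGO was high, and the other groups lay close together. MAPK14 was 5.24 times lower in miR143_AGO than in control_AGO by the plain ratio, a log2 ratio of −2.24, and 2.68% of the rows compared had a lower one. In control cells it was 7.27 times higher with the AGO2 antibody than with IgG (log2 ratio 2.65), and in miR-143 cells that log2 ratio was 0.19. The IgG-corrected log2 ratio was −2.46. Between the mock precipitates the log2 ratio was 0.21, so that the difference lay in the AGO2 precipitate of control cells. In that group its value was 2775 times the lowest readable level.

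MAPK8 (JNK1; chr10:48306639-48439360, plus strand) reached 12.4 FPKM in control and 20.6 FPKM in miR-143 cells with the AGO2 antibody, and 29.7 FPKM in control and 22.2 FPKM in miR-143 cells with IgG. It was the most evenly recovered of the 10 genes, and control_AGO was its lowest group. The log2 ratio was 0.69 between the AGO2 precipitates, −0.40 between the mock precipitates, and −1.20 for control_AGO over control_IgG. For miR143_AGO over miR143_IgG it was −0.10 with the values as deposited, a direction that turned to 0.18 and 0.32 when groups were scaled to the same median or upper quartile.

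MAPK9 (JNK2; chr5:180233143-180292099, minus strand) had an order of groups unlike that of MAPK8. It reached 3.26 FPKM in control and 0.945 FPKM in miR-143 cells with the AGO2 antibody, and 0.877 FPKM in control and 4.11 FPKM in miR-143 cells with IgG. The AGO2 precipitate was the higher one in control cells and the lower one in miR-143 cells, with log2 ratios of AGO2 over IgG of 1.18 and −1.39. Between cell populations the log2 ratio was −1.13 with the AGO2 antibody and 1.44 with IgG, and the IgG-corrected log2 ratio was −2.58. The value in control_IgG was 5.99 times the lowest readable level of that group. MAPK9 was under 1 FPKM in miR143_AGO and control_IgG, so that each ratio between a pair of groups entered only through its higher group. MAPK8 stood above MAPK9 in every group, 33.8 times in control_IgG, 3.79 times in control_AGO, 5.39 times in miR143_IgG and 21.8 times in miR143_AGO.

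**Figure D3:**
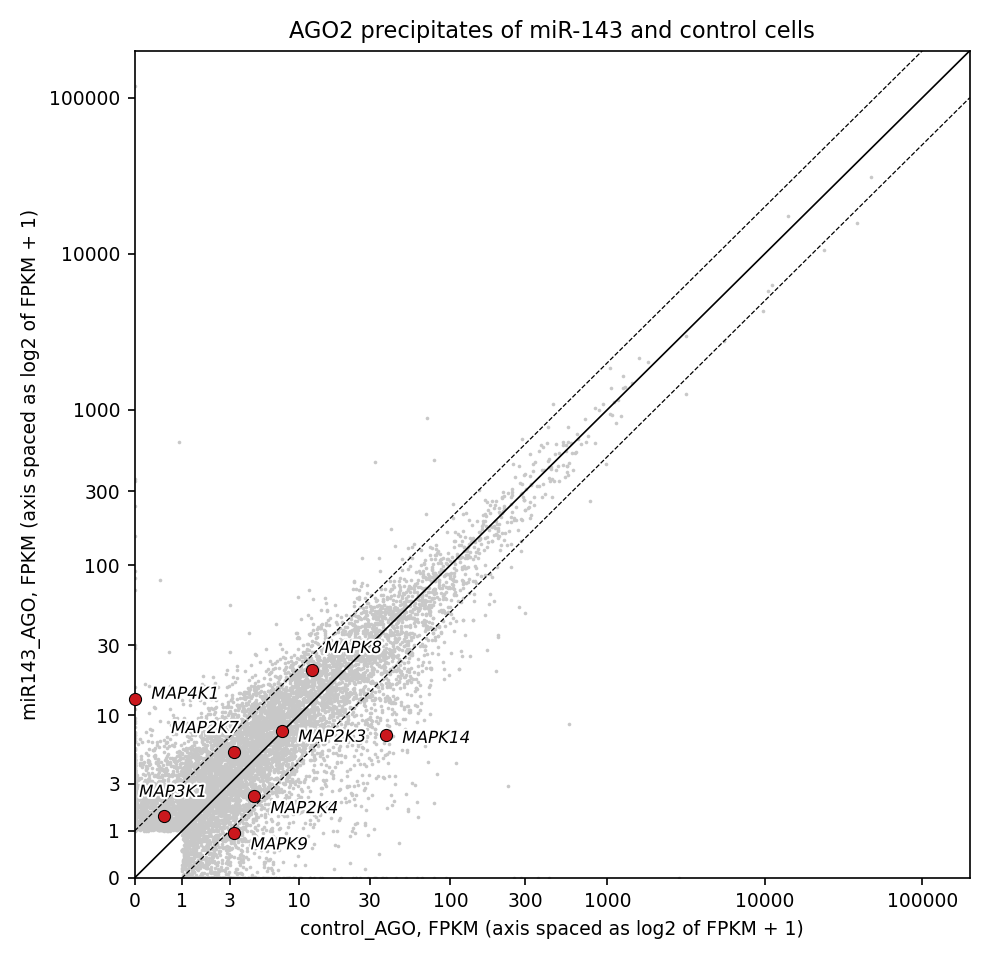
FPKM in miR143_AGO against control_AGO for every row with at least 1 FPKM in 1 of them (grey) and for the 8 stress kinase genes among these (red), with both axes spaced as log2(FPKM + 1), a solid line of equality and dashed lines at 2-fold. MAP4K1 lies on the y axis at 13.04 FPKM, MAPK14 and MAPK9 lie below the lower dashed line, and the other 5 lie between the dashed lines.

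Between the AGO2 precipitates 8 of the 10 genes could be compared. MAP2K6 and MAP3K5 were under 1 FPKM in both groups. At least 2-fold higher in miR143_AGO was 1 of the 8, MAP4K1, through its 0 in control_AGO, and of all 9798 rows 17.7% were. At least 2-fold lower were 2 of the 8, MAPK14 and MAPK9, and of all rows 14.1%. At the 10-fold limit of the study 1 gene was higher, again MAP4K1 and by the pseudocount, and none was lower, against 0.286% and 0.745% of all rows. The count of higher genes rests on the value that chose MAP4K1, and nothing is read from it. The shares of all rows use FPKM + 1 over rows of at least 1 FPKM, and 28 rows were at least 10-fold higher. The study reported far more mRNAs past its limit, and its handling of low values is not given in the sources used here. Without MAP4K1 the median log2 ratio of the 7 genes compared was 0.02, with 0.17 over all rows, and MAP3K1 entered only through miR143_AGO. MAPK9, counted as lower, entered only through control_AGO, with 0.945 FPKM in miR143_AGO. Nearest to the 2-fold limit were MAPK9 just past it (−1.13) and MAP2K4 just short of it (−0.78). The limit was set on the scale of FPKM + 1. By the plain ratio MAP2K4 was 2.02 times lower and MAP3K1 2.81 times higher in miR143_AGO.

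Between the mock precipitates 6 genes were compared. At least 2-fold higher in miR143_IgG were 3, MAPK9, MAP2K7 and MAP4K1, of which MAP2K7 and MAP4K1 were at 0 in control_IgG, against 36.2% of 10172 rows. At least 2-fold lower was MAP2K4, against 26.8%. MAPK9 and MAP2K4 reached 1 FPKM only in the higher of the groups compared. The spread over all rows was wider than in the AGO2 pair, with an SD of log2 ratios across rows of 1.99 against 1.12.

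For AGO2 over IgG in control cells, 6 genes were compared. At least 2-fold higher were 4, MAPK14, MAPK9, MAP2K3 and MAP2K7, of which MAP2K3 and MAP2K7 were at 0 in control_IgG, against 34.5% of 9919 rows. MAPK9 reached 1 FPKM only in control_AGO of these groups. At least 2-fold lower were MAPK8 and MAP2K4, against 36.2%. MAP2K4 was right at the limit. Scaled to the same median, MAPK8 stood at −0.59 and MAP2K4 at −0.45, and scaled to the same upper quartile they stood at −0.82 and −0.65, so that the counts became 4 higher and 0 lower under both.

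In miR-143 cells 8 genes were compared. MAP2K3 was at least 2-fold higher with the AGO2 antibody, against 26.6% of 10643 rows, and MAPK9 at least 2-fold lower, against 33.5%. Both reached 1 FPKM only in the higher of the groups compared. MAP4K1 (0.91) and MAP2K4 (0.85) were just short of the limit, which was set on the scale of FPKM + 1. By the plain ratio MAP4K1 (2.01 times), MAP2K4 (2.76 times) and MAP3K1 (2.45 times) were past it. Scaling to the same median moved the log2 ratios of MAP4K1 and MAP2K4 to 1.17 and 1.03. Scaling to the same upper quartile moved these to 1.31 and 1.13, so that 3 were higher and 1 was lower under both. For the IgG-corrected ratio 8 genes were compared, of which 2 were at least 2-fold higher, against 29.0% of 11914 rows, and 3 lower, against 33.5%. In MAP2K3, MAP2K7, MAP4K1 and MAP3K1 this ratio includes a group at 0. These comparisons share groups with one another, so that their counts are not separate evidence.

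**Figure D4:**
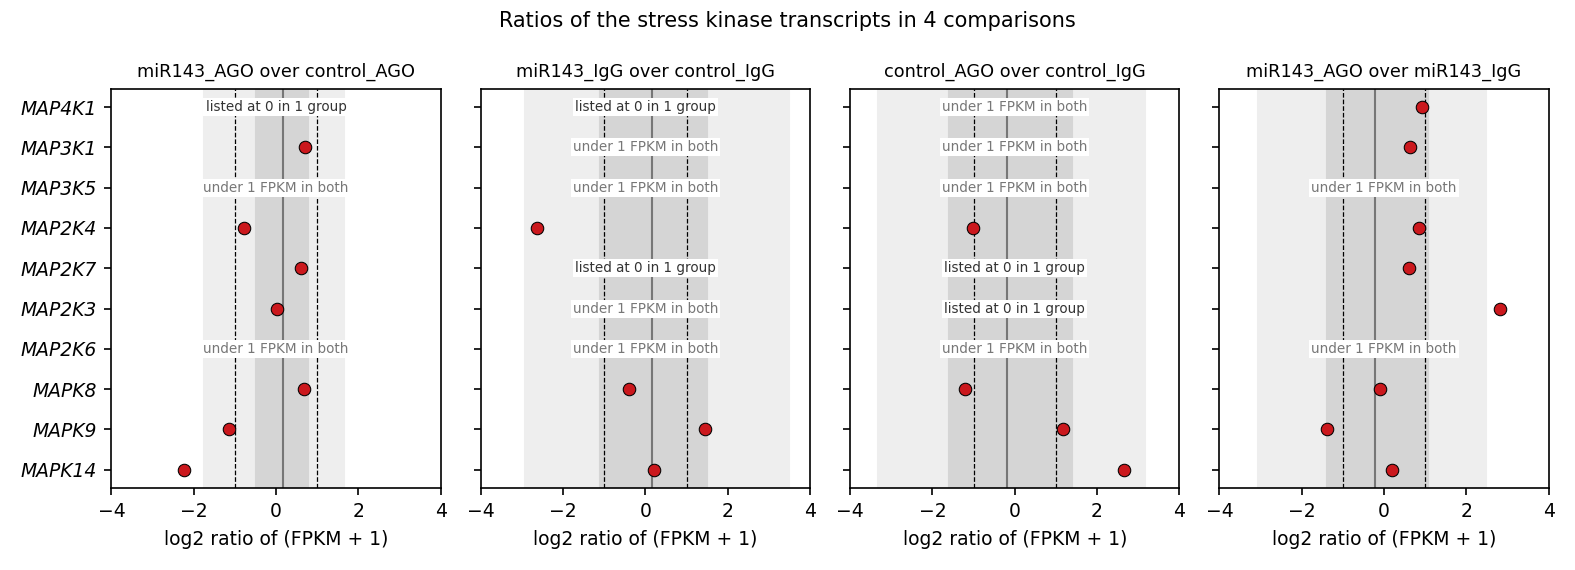
Log2 ratios of FPKM + 1 for each of the 10 genes in 4 comparisons, with dashed lines at 2-fold, the median (line), the 25th to 75th percentile (dark band) and the 5th to 95th percentile (light band) of all rows compared, and with genes under 1 FPKM in both groups or listed at 0 in 1 group named as such in place of a point. MAPK14 is at −2.24 between the AGO2 precipitates and at 0.21 between the mock precipitates, and MAPK9 is on opposite sides in these comparisons (−1.13 and 1.44).

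The rest of the pathway was read from 6 lists of general knowledge with 55 genes, of which 54 were found. MAP3K20 was not analysed here. Between the AGO2 precipitates 43 of their rows were compared. At least 2-fold higher in miR143_AGO were 8 (18.6%) and lower were 9 (20.9%), against the 17.7% and 14.1% of all rows given above. Their median log2 ratio was 0.02, and none passed 10-fold.

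Among the other MAP4 kinases 0 of 5 passed 2-fold in either direction. The highest was MAP4K4 with a log2 ratio of 0.76 and the lowest MINK1 with −0.52. Of 11 other MAP3 kinases 1 was higher and 3 were lower. The higher one was TAOK3, a TAO kinase, which was listed at 0 FPKM in both precipitates of control cells and reached 1.94 FPKM (AGO2) and 8.28 FPKM (IgG) in miR-143 cells. The lowest ratio was that of MAP3K10, a mixed-lineage kinase of the JNK branch, with 5.82 FPKM in control_AGO against 1.02 FPKM in miR143_AGO (−1.76).

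Of the other p38 and JNK genes 2 rows were compared. MAPK11 (p38β) had 7.13 FPKM in control_AGO against 1.48 FPKM in miR143_AGO, a log2 ratio of −1.71. Here it was on the same side as MAPK14, and the log2 ratio of AGO2 over IgG was also above 0 for both genes. In control cells that ratio was 0.23 for MAPK11 and 2.65 for MAPK14. In miR-143 cells it was 1.31 for MAPK11, which was at 0 FPKM in miR143_IgG, and 0.19 for MAPK14. The signs differed between the mock precipitates and in the IgG-corrected ratio. With IgG, MAPK11 had 5.91 FPKM in control and 0 FPKM in miR-143 cells, whereas the log2 ratio of MAPK14 there was 0.21. The IgG-corrected log2 ratio was 1.08 for MAPK11, resting on that 0, and −2.46 for MAPK14. MAPK12 (p38γ) shares a row with HDAC10, whose ratio of 0.88 cannot be assigned to either gene. MAPK13 (p38δ) and MAPK10 (JNK3) were at 0 FPKM in every group.

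Of 11 adaptors and activators 3 were higher and 3 lower. Both ends were JNK scaffold proteins, MAPK8IP3 with 1.59 FPKM in control_AGO against 7.41 FPKM in miR143_AGO (1.70), and MAPK8IP1 with 17.1 and 5.34 FPKM (−1.52). Of 6 kinases that p38 activates 2 were higher and none lower. The row that joins MKNK1 and MOB3C was highest (4.38 and 15.2 FPKM, 1.59), and MAPKAPK5 was lowest (35.7 and 23.8 FPKM, −0.56). Of 8 transcription factors 2 were higher and 2 lower. A row that joins ATF7 with 2 other genes was highest (0.479 and 4.51 FPKM, 1.90). ELK1, a factor of the ternary complex that MAP kinases phosphorylate, was lowest (15.6 and 5.05 FPKM, −1.45).

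The RAS to ERK chain, the branch that growth factors use, served for comparison. Of its 10 rows compared 2 were at least 2-fold higher and 1 was lower, with a median log2 ratio of 0.17. MAPK3 (ERK1) was highest, with 13.4 FPKM in control_AGO against 30.8 FPKM in miR143_AGO (1.15). MAP2K2 (MEK2) was lowest, at 168 and 47.5 FPKM (−1.80), a ratio nearer to 0 than that of MAPK14.

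**Figure D5:**
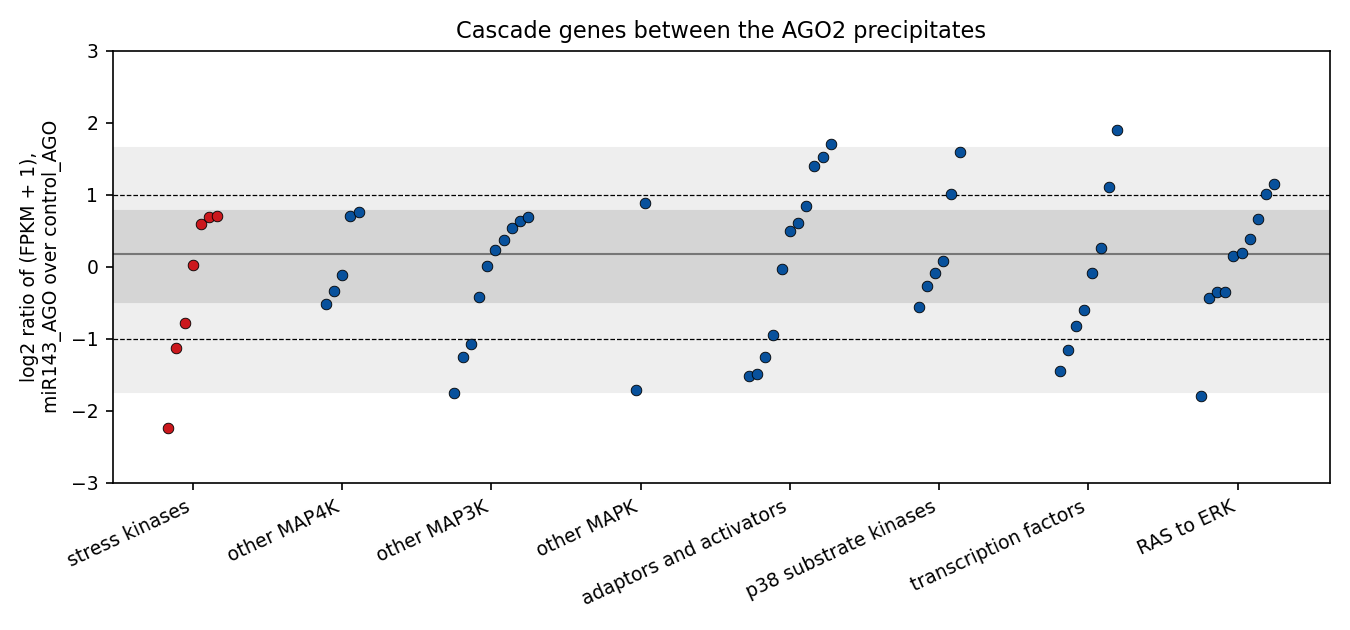
Log2 ratio of miR143_AGO over control_AGO for the stress kinase genes and the genes of each pathway list, with 1 point per row, ordered from low to high within a list, over the median (line), the 25th to 75th percentile (dark band) and the 5th to 95th percentile (light band) of all rows compared, and dashed lines at 2-fold. Rows at 0 in 1 of these groups (MAP4K1 and TAOK3) are left out, and the lists overlap in range, with MAPK14 the lowest point at −2.24.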

How the data were processed

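RNA from AGO2 and mock IgG precipitates of K562 cells was sequenced in 12 samples, grouped by their titles. The authors deposited 4 tables with 1 average FPKM per gene row and group. The submitters' processing notes name TopHat, Cufflinks and the genome build hg38, without versions, and the annotation is not given in the sources used here. The labels describe Ribo-Zero Gold depletion and the TargetAmp kit, whereas the methods of the study name a TruSeq RNA kit. FPKM is scaled to each library's total, so that abundant RNAs lower all other values, and fragment counts are unknown.

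Log2 ratios used FPKM + 1 over rows of at least 1 FPKM in a group compared. Such a ratio understates the difference of low genes. Python 3.11.15, numpy 2.4.6, pandas 2.3.3 and matplotlib 3.10.9 were used, and the ratio script was tested on simulated data. The depth edge is the 10th lowest product of FPKM and length over rows of genes with 1 transcript, and follows the deepest library of a group. Coordinates and 3′ UTRs were taken from GENCODE 29 (GRCh38) by symbol, and the mature miRNA from RefSeq (GRCh38.p14).

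The genes and lists were chosen with earlier results of these data known. Named were all 10 genes, the highest and the lowest ratio of each list between AGO2 precipitates, list genes past 10-fold there, and the 5 coding rows nearest to MAP4K1. Genes named outside this rule are marked or belong to the lists. A further lymphoid marker of the planned list is not reported here. Alternatives were pseudocounts of 0.1 and 0.01, other filters, scaling to the same median or upper quartile, leaving out joined rows, and other 3′ UTRs.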

Additional observations from a re-analysis of the deposited data

Results flagged for a closer look

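With FPKM + 1, MAPK9 alone of the 10 genes was at least 2-fold apart in opposite directions under the same contrast. Other genes of the cascade also had ratios of opposite sign, with at least 1 of the ratios under 2-fold on that scale. For MAPK9 the log2 ratio of AGO2 over IgG was 1.18 in control cells, whereas miR-143 cells gave −1.39. Its log2 ratio of miR-143 over control cells was −1.13 with the AGO2 antibody and 1.44 with IgG. The difference was not tested, since each value is a ratio of averages and the directions in single samples are unknown. These ratios use the same 4 averages, so that they are 1 pattern and not 2. MAPK9 was under 1 FPKM in miR143_AGO (0.945 FPKM) and control_IgG (0.877 FPKM), and each of its ratios above entered only through its higher group. By the plain ratio MAP2K4 was also past 2-fold in opposite directions. With the AGO2 antibody it was 2.22 times lower than with IgG for control cells, but 2.76 times higher for miR-143 cells. These log2 ratios were −1.13 and 1.36 with a pseudocount of 0.1, and −1.15 and 1.45 with 0.01. Scaled to the same median or upper quartile, the control ratio of MAP2K4 stayed under 2-fold (−0.45 and −0.65).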

How the results depend on the processing

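No paired analysis was possible because every table gives a single mean for its group, and for the same reason leaving out each replicate and the replicate block were not run. Counts of stress kinase genes past 2-fold were taken as moved when they differed by more than 1.5 times. Between the AGO2 precipitates the count of 3 became 5 with a pseudocount of 0.01, and within that limit 4 with 0.1 and 2 with a mean of at least 5 FPKM required. Between the mock precipitates 4 became 1, and for AGO2 over IgG in control cells 6 became 3, with that mean required. In miR-143 cells 2 became 4 with a pseudocount of 0.1, 5 with 0.01, 0 with the mean of 5 FPKM, and 4 under either scaling. The IgG-corrected count of 5 became 8 with a pseudocount of 0.01 and 2 with the mean of 5 FPKM, and within the limit 7 with 0.1 and 6 under upper-quartile scaling. That filter leaves only 2 to 4 of the genes, which itself lowers the counts. Genes with a seed site fell from 5 to 1 when the shortest 3′ UTR was read. With another pseudocount 38 of 72 ratios of single genes moved by more than 0.5 log2 units, and with scaling 3 of 72. Other filters change which genes are compared and not their ratios. The IgG-corrected ratio of MAP3K1, 0.01 and resting on a 0 in control_IgG, turned to −1.50 and −4.49 with pseudocounts of 0.1 and 0.01. The sign of MAP2K3 between the AGO2 precipitates, 0.02 as deposited, turned to −0.08 when scaled to the same median, and that of MAPK8 in miR-143 cells turned as given above. Scaling moved the median of all rows by −0.23 to 0.53 log2 units. Depth was least in control_IgG, and a low value or a 0 there limits every ratio that uses it. The 50th lowest product in place of the 10th put control_IgG at 15.4 times the edge of miR143_AGO.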

Other observations

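The AGO2 pair and the mock pair share no group, but both compare the same cell populations, so that their results are not independent. Genes at least 2-fold apart in the same direction in both were counted after the values had been seen. Over all 8056 rows compared in both pairs, 6.62% were higher in both precipitates of miR-143 cells, 3.13% were lower in both and 8.06% went in opposite directions. Of 36 rows of the 6 pathway lists, 6 (16.7%) were higher in both, 4 (11.1%) were lower in both and 1 (2.78%), the row that joins ATF2 with another gene, went in opposite directions. Higher were the scaffold gene MAPK8IP3, the activators TRAF6 and GADD45A, the kinases TAOK3 and MAPKAPK2, and the row that joins MKNK1 and MOB3C. TAOK3 was at 0 in both control groups, and TRAF6 and GADD45A in control_IgG, so that their calls rest on the pseudocount. Lower were the scaffold gene MAPK8IP1, the adaptor TRAF2, the p38 gene MAPK11 and the transcription factor gene ELK1. TRAF6 reached 4.47 FPKM (AGO2) and 2.39 FPKM (IgG) in miR-143 cells, against 1.08 FPKM (AGO2) and 0 FPKM (IgG) in control cells. GADD45A, which activates MAP3K4, reached 4.87 FPKM (AGO2) and 2.16 FPKM (IgG) in miR-143 cells, against 1.04 FPKM (AGO2) and 0 FPKM (IgG) in control cells. TRAF2 was at 4.70 FPKM (AGO2) and 3.17 FPKM (IgG) in miR-143 cells, against 15.02 FPKM (AGO2) and 18.7 FPKM (IgG) in control cells.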
